A study of Mus musculus with 11 samples.

Results

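Hmgcs1, Sqle, Idi1, Fdft1, Lss, Insig1, Srebf2 and Abca1 were followed by symbol through the gene table of the droplet libraries, where all 8 were found among 27998 genes, and through plate-sorted wells of the same mesenchyme. Hmgcs1 (ENSMUSG00000093930), Idi1 (ENSMUSG00000058258), Fdft1 (ENSMUSG00000021273), Sqle (ENSMUSG00000022351) and Lss (ENSMUSG00000033105) encode enzymes of cholesterol synthesis. Insig1 (ENSMUSG00000045294) and Srebf2 (ENSMUSG00000022463) encode regulators of that pathway, and Abca1 (ENSMUSG00000015243) encodes a transporter that exports cholesterol. No member is an uptake receptor, so uptake was read only from a wider list of 42 other sterol and lipid genes.

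Cells build cholesterol from acetyl-CoA. Hmgcs1 makes the HMG-CoA from which mevalonate is formed, Idi1 isomerises the isoprenoid unit, Fdft1 joins farnesyl units to squalene, Sqle oxidises squalene and Lss closes the ring to lanosterol. When membranes are short of sterol the factor encoded by Srebf2 is released to the nucleus and raises the synthesis genes and Insig1, whose product holds the factor back when sterol returns. Oxysterols formed from surplus sterol act through liver X receptors, which raise Abca1. Hepatic stellate cells (HSCs) store vitamin A in lipid droplets in uninjured liver and lose these droplets when injury turns them into matrix-producing cells.

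Mesenchymal cells came from adult male Pdgfrb-BAC-eGFP mice on a C57BL/6 background, the reporter marking cells in which the Pdgfrb promoter is active, and GFP-positive cells without CD45 or CD102 were sorted from pooled mice. The 5 10X libraries, each from 3 mice per the labels, were an uninjured and a 6-week carbon tetrachloride (CCl4) library from each of 2 digestions, and 1 library taken 72 h after a single CCl4 injection. The digestion labelled HSC perfused the liver and used a density gradient, and the digestion labelled PF dissociated minced tissue. On 6 Smart-seq2 plates, wells came from uninjured mice, from mice 14 d after bile duct ligation (BDL), which blocks bile flow, and from mice given CCl4 for 6 weeks. Wells that share both a mouse and a plate form a portion. The sources do not say that every portion was a separate mouse. The paper counts 3 mouse liver samples for Smart-seq2, all uninjured, fewer than the 6 uninjured portions tested below. Portions may therefore share mice, and p-values measure only the spread between portions.

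Cells were assigned to HSC-like, fibroblast-like (FB-like) and vascular smooth muscle-like (VSMC-like) classes by marker genes after clustering without the 8 genes and the wider list. HSC-like cells numbered 6850 in the uninjured, 7118 in the 72 h and 5431 in the 6-week library, FB-like cells 4094 and 2696, and VSMC-like cells 1640 and 2949, in uninjured and 6-week libraries, and summed UMIs ran from 5656468 to 83755625 per class. The 7 HSC markers summed to 27246 UMIs per 1000000 UMIs of the class (CPM) in uninjured HSC-like cells, 5945 at 72 h and 14967 at 6 weeks, none of them at 0, whereas the 6 FB markers in FB-like cells reached 8673 (uninjured) and 9340 CPM (6 weeks) and the 5 VSMC markers in VSMC-like cells 32754 and 29359 CPM. Different clusters held most HSC-like cells in each library: clusters led by Cxcl10, Gcgr or Fcna in uninjured liver, by Plagl1, Abhd2, Alpl or Birc5 at 72 h, and by Clec4g, Hk2 or Alcam at 6 weeks. The 72 h and 6-week libraries were clustered in separate runs, each with the uninjured libraries, so their cells could not share a cluster. Pairs of libraries shared 33 to 74 cell barcodes. Each condition had 1 library per digestion, so the values below have exact Poisson 95% intervals that cover counting error only, there is no test between these libraries, and class and digestion cannot be told apart where HSC-like cells are compared with the others. Fewer cells of a type within a class and less RNA per cell cannot be told apart in sums of this kind.

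Positions are those of GRCm38. Hmgcs1 spans chr13:119690379-119708260 and Idi1 chr13:8885501-8892451, while Sqle (chr15:59315077-59331192) and Srebf2 (chr15:82147181-82205379) share chromosome 15. Fdft1 lies at chr14:63145150-63179578, Lss at chr10:76531588-76557138, Insig1 at chr5:28071363-28078662 and Abca1 at chr4:53030787-53159895. All are protein-coding, and Fdft1 and Abca1 run on the minus strand.

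Promoters from RefSeq (GRCm38.p6) were matched for 6 of the 8 genes and searched on both strands, over the 250 bases before the annotated start, for a sterol regulatory element (TCACNCCAC), for CCAAT, which binds NF-Y, a partner of the sterol factors, and for the E-box CACGTG. The sterol element was found in 1.05% of 32851 mouse promoters, CCAAT in 33.8% and CACGTG in 6.02%. Hmgcs1, the only matched member with the sterol element, had it beginning 137 bases before the start and had 3 CCAAT boxes in the reverse direction. CCAAT was present in the matched synthesis and regulator genes Idi1, Lss, Insig1 and Srebf2 too, and not found in this window of Abca1. Insig1 and Abca1 each had 1 CACGTG. The promoters of Hmgcs1, Insig1 and Abca1 are printed as an enzyme, a regulator and the exporter whose values are set against each other below; capitals mark the motif letters, each runs 5′ to 3′ on the strand of its gene, and each stops before the annotated gene body. They are Hmgcs1 at chr13:119690101-119690350 (plus strand), Insig1 at chr5:28071162-28071362 (plus strand) and Abca1 at chr4:53159896-53160145 (minus strand).
Hmgcs1: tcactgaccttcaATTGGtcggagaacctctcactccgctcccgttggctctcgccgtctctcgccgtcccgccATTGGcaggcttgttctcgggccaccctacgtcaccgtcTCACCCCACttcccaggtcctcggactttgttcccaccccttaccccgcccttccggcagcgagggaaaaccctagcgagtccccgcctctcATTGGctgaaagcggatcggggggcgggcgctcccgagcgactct
Insig1: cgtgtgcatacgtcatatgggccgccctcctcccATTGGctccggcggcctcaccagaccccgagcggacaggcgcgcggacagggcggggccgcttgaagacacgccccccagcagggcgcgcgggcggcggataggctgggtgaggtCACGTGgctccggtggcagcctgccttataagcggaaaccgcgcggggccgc
Abca1: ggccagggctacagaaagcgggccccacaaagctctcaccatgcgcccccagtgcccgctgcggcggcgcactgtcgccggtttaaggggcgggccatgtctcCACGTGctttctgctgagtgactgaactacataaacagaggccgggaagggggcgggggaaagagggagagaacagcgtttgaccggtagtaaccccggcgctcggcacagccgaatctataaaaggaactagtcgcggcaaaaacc

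In uninjured liver Idi1, Fdft1, Sqle, Lss and Insig1 were lower in HSC-like cells than in FB-like or VSMC-like cells, while Hmgcs1 and Srebf2 were close to level over the classes and Abca1 was low in VSMC-like cells. Sqle was at 1.81 CPM (interval 1.44 to 2.24) in HSC-like cells, 14.0 (12.5 to 15.8) in FB-like cells and 12.9 (10.1 to 16.2) for VSMC-like, and was 7.76-fold higher in FB-like than in HSC-like cells. Fdft1 followed the same order at 3.19, 14.5 and 16.1 CPM. Idi1 was at 7.37, 18.2 and 23.3 CPM and Lss at 2.54, 4.34 and 5.48 CPM. For each of these enzymes the HSC-like interval lay below both others, and those of FB-like and VSMC-like cells overlapped for Sqle, Fdft1, Idi1 and Lss. The share of all genes placed in this way was not computed.

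Hmgcs1, at the head of the pathway, was at 21.6 CPM (20.3 to 23) in uninjured HSC-like cells, 27.3 (25.1 to 29.7) in FB-like and 24.4 (20.5 to 28.8) in VSMC-like cells. Srebf2 was at 20.6, 21.6 and 21.0 CPM, with overlapping intervals throughout. Insig1 stood at 9.92 CPM (9.03 to 10.9), 49.1 (46.1 to 52.2) and 25.8 (21.8 to 30.4), so that FB-like cells were 4.95-fold above HSC-like cells and 1.9-fold above VSMC-like cells. Abca1 was at 19.5 CPM (18.3 to 20.8) in HSC-like and 24.3 (22.2 to 26.6) in FB-like cells but at 4.6 (3.0 to 6.73) for VSMC-like, a 5.3-fold difference between FB-like and VSMC-like cells of the same library. At a minimum of 1 CPM, 5 of 8 members lay past 1.5-fold higher in FB-like than in HSC-like cells, against 25.5% of all genes, and 5 of 8 were past it in VSMC-like over HSC-like cells, against 24.9%. Abca1 alone was past it in the lower direction in VSMC-like over HSC-like cells, against 30.8% of genes, and Insig1 and Abca1 were the members higher in FB-like than in VSMC-like cells, against 31.1%.

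**Figure D1:**
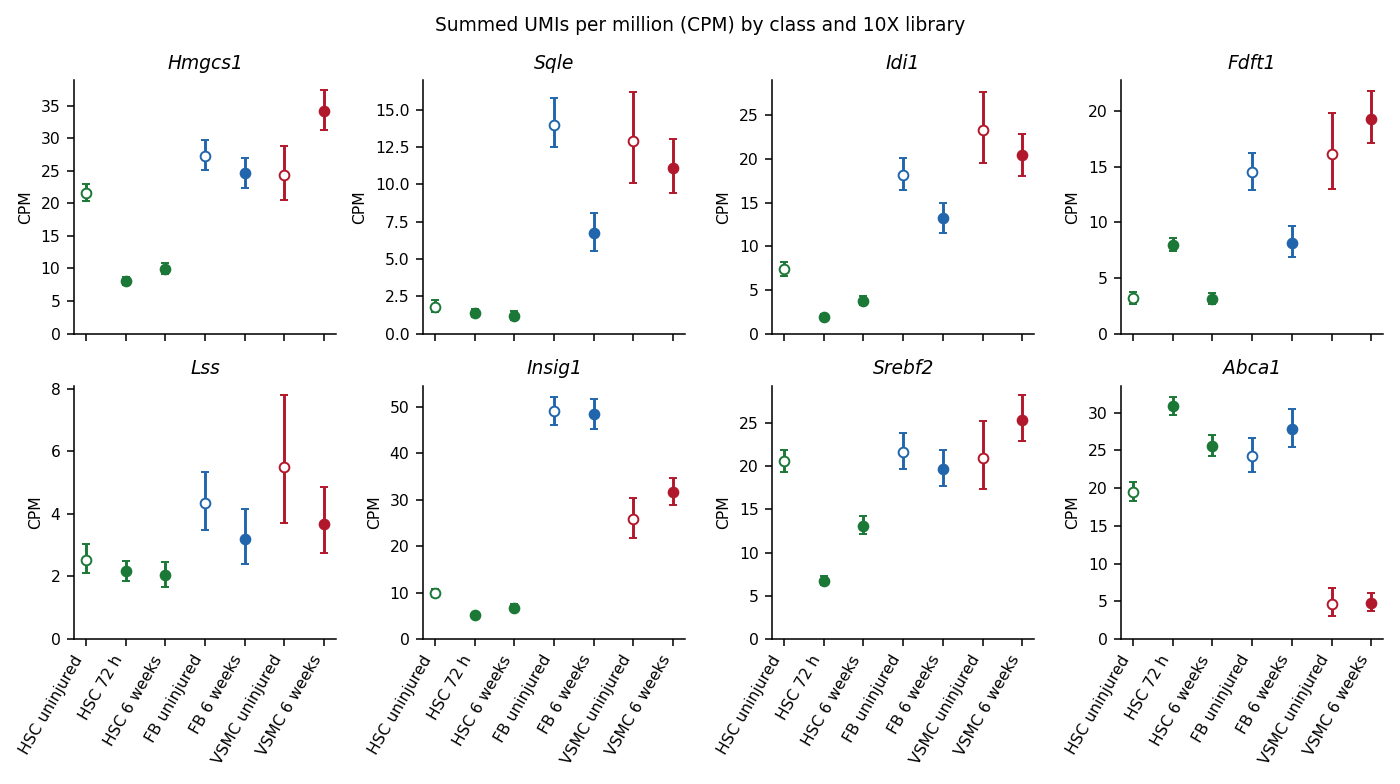
UMIs per 1000000 (CPM, linear axis from 0) of each gene in the 7 combinations of class and 10X library, with open circles for uninjured and filled circles for injured liver and bars for exact Poisson 95% intervals. HSC-like cells sit below the other classes for Sqle, Idi1 and Insig1 in all 3 libraries, and VSMC-like cells stay at 4.6 and 4.77 CPM for Abca1.

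After a single CCl4 injection, HSC-like cells had less RNA of Idi1, Srebf2, Hmgcs1 and Insig1 and more of Fdft1 and Abca1. Idi1 was at 7.37 CPM in the uninjured library (6.61 to 8.2) and 1.87 at 72 h (1.59 to 2.19), 3.93-fold lower. Srebf2, the factor that drives the pathway, went from 20.6 to 6.76 CPM, 3.04-fold lower, and Hmgcs1 from 21.6 to 8.08 CPM, 2.68-fold lower. Insig1 was 1.92-fold lower, at 5.16 against 9.92 CPM, but with every cell thinned to 2000 UMIs its fold was 0.694, no longer past 1.5-fold. None of these 4 pairs of intervals overlapped at full depth, and the share of all genes with separate intervals was not computed.

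Fdft1, which commits farnesyl units to sterol, stood apart from the other enzymes among the 8 members. It was at 7.98 CPM at 72 h (7.38 to 8.6) against 3.19 in uninjured cells (2.7 to 3.75), 2.5-fold higher. Of the synthesis genes in the wider list, Mvd was also higher, at 7.19 against 4.22 CPM, as was Mvk, at 21.1 against 14.1 CPM. At a minimum of 1 CPM, 1 of 14 such genes was past 1.5-fold higher and 5 were lower, against 18.0% and 25.6% of genes. Sqle (1.37 against 1.81 CPM) and Lss (2.16 against 2.54 CPM) had overlapping intervals. Abca1 was at 30.9 CPM (29.7 to 32.1) against 19.5, 1.58-fold higher. Of the 3 members that reached 20 CPM in either library, Hmgcs1 and Srebf2 were past 1.5-fold lower and Abca1 past 1.5-fold higher, against a background of 39.4% of 6234 genes past 1.5-fold in either direction. Each of these 3 reached 20 CPM only in the library where it was higher, so the count is shaped by that minimum. At a minimum of 1 CPM, 4 of 8 were lower and 2 of 8 higher, against 25.6% and 18.0% of genes, and the median fold of the members was 0.639 beside 0.889 for all genes.

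Other measures moved in the same library, some of them also at 6 weeks. The 6 FB markers summed to 30.5 CPM in uninjured HSC-like cells, 247 at 72 h and 523 at 6 weeks, and the 5 VSMC markers to 594, 1874 and 995 CPM, with 1 VSMC marker at 0 in the uninjured and in the 6-week cells. The sum of 9 heat-shock genes was 4209 CPM in uninjured HSC-like cells and 1540 at 72 h, and that of 9 immediate early genes 12434 and 7218 CPM. The sum of 8 division genes was 54.5 CPM and 658 CPM, the median UMIs per cell 6718 and 11268, and 6 hepatocyte markers summed to 53.6 and 32.5 CPM with none at 0. The part of these in the values of the 8 genes was not tested.

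After 6 weeks of CCl4 the same regulators and early enzymes were again lower in HSC-like cells than in uninjured liver, by less than at 72 h for Srebf2 and Idi1. Hmgcs1 was at 9.95 CPM (9.11 to 10.9), 2.17-fold lower than uninjured, and Idi1 at 3.76 CPM (3.25 to 4.33), 1.96-fold lower. Srebf2 was at 13.1 CPM (12.2 to 14.2), 1.57-fold lower, and Sqle at 1.16 CPM, 1.56-fold lower. Both ended inside 1.5-fold under TMM scaling, with a fold of 0.731 for each, and Sqle also when thinned, at 0.701. Insig1 was at 6.73 CPM, 1.47-fold lower, and Lss at 2.04 CPM. Fdft1 was at 3.11 CPM (2.64 to 3.62), within the interval of the uninjured cells, and Abca1 at 25.6 CPM (24.3 to 27.1), 1.31-fold higher.

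Hmgcs1 and Srebf2 were the members past 1.5-fold at 20 CPM in this comparison, against 17.5% of genes. Both reached 20 CPM only in the uninjured library, where they were higher. At 1 CPM, Hmgcs1, Idi1, Sqle and Srebf2 were past it in the lower direction, against 13.5% of genes, with a median fold of 0.659 for the members and 0.87 for all genes. Set directly against the 72 h library, the 6-week library had 2.01-fold more Idi1 and 1.94-fold more Srebf2, where 13.4% of genes were past 1.5-fold higher, and 2.57-fold less Fdft1, where 16.2% were past 1.5-fold lower. No member was past 1.5-fold at 20 CPM there, where 24.4% of genes were. The heat-shock sum at 6 weeks was 4081 CPM, beside 4209 in uninjured cells, and the division-gene sum 88.2 CPM. The uninjured library enters both of the comparisons with injured liver.

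**Figure D2:**
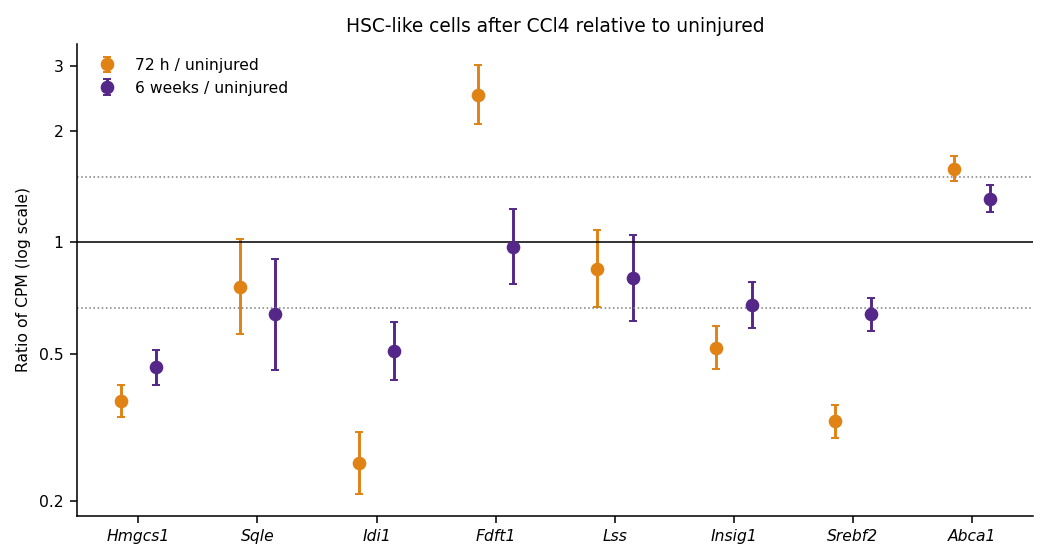
Ratio of CPM in HSC-like cells at 72 h and at 6 weeks to the uninjured library, on a log axis, with exact 95% counting intervals, a solid line at 1 and dotted lines at 1.5-fold either way. Idi1, Srebf2 and Hmgcs1 lie lowest at 72 h, and Fdft1 is high at 72 h and at 0.974 at 6 weeks.

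The order over the 3 HSC-like libraries therefore differed by gene. Srebf2, Idi1, Insig1 and Hmgcs1 ran from uninjured through 6 weeks down to 72 h, each step beyond the counting intervals. How many of all genes had such separate intervals was not computed. Abca1 ran the opposite way, with 72 h at the top and uninjured cells at the bottom. Fdft1 was high at 72 h with the other libraries indistinguishable, and no pair of libraries had separate intervals for Sqle or Lss, although the 6-week ratio of Sqle had an interval of 0.451 to 0.901.

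Among the wider list in HSC-like cells at 72 h, 8 of the 18 genes that reached 20 CPM were past 1.5-fold lower and 1 higher, against 26.1% and 13.3% of all genes at that minimum. The lower genes included Msmo1, a C4-demethylating enzyme of the late pathway, at 3.25 against 20.3 CPM (6.26-fold), Fdps, which makes the substrate of Fdft1, at 9.09 against 23.5 CPM (2.59-fold), and Lbr, a sterol reductase of the nuclear envelope, at 14.4 against 36.4 CPM (2.53-fold). Srebf1, the partner of Srebf2 that mainly drives fatty acid genes, was 3.51-fold lower, at 10.3 against 36.2 CPM, and Mbtps1, a protease that releases the sterol factors, 1.87-fold lower. Apoe, which accepts exported cholesterol, was at 2583 against 9404 CPM, 3.64-fold lower. Acly, which supplies acetyl-CoA, was 1.72-fold lower and Mylip, which degrades lipoprotein receptors, 1.5-fold lower. Npc2, which carries sterol out of lysosomes, was the gene that was higher, at 438 against 267 CPM.

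At 6 weeks, 6 of 17 genes of the wider list were past 1.5-fold lower than uninjured and 1 was higher, against 11.3% and 6.19% of all genes. Lbr (2.42-fold), Srebf1 (2.22-fold), Msmo1 (1.96-fold), Mbtps1 (1.65-fold) and Mylip (1.64-fold) were lower as at 72 h, and Npc2 was 1.54-fold higher. Abcg1, another sterol exporter, was 1.82-fold lower, at 17.8 against 32.5 CPM, so that it and Abca1 differed from uninjured in opposite directions. Against 72 h, Apoe was 3.02-fold higher at 6 weeks, Mvk, which phosphorylates mevalonate, 1.54-fold lower and Scd2, a fatty acid desaturase, 1.57-fold lower, so that 1 of 14 genes at 20 CPM was past 1.5-fold higher and 2 lower, against 12.5% and 11.9% of all genes.

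Cells with UMIs of at least 3 of 8 division genes made up 1254 of 7118 HSC-like cells at 72 h (17.6%), 28 of 6850 in uninjured liver (0.409%) and 68 of 5431 at 6 weeks (1.25%). At 72 h Fdft1 was at 15.6 CPM in dividing cells (14.0 to 17.5) and 5.58 in the others (5.01 to 6.19), a 2.8-fold ratio (2.4 to 3.27). Sqle was 1.77-fold, Idi1 1.58-fold and Hmgcs1 1.25-fold higher in dividing cells, while Lss, at 1.35 against 2.41 CPM, was 1.78-fold lower. Abca1 was at 25.8 against 32.5 CPM, and Insig1 and Srebf2 had ratios of 0.854 and 0.816 with intervals reaching 1. Without the dividing cells, Fdft1 was still 1.92-fold higher at 72 h than in uninjured cells. In the few dividing cells of the 6-week library Fdft1 was at 18.4 CPM (11.1 to 28.7) against 2.8 CPM in the others.

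Dividing cells thus carried more Fdft1 and Sqle and less Abca1 within the 72 h library. Lbr had a 3.69-fold ratio at 72 h, at 32.4 against 8.78 CPM. These cells come from single libraries, so the ratios are descriptions with counting intervals. The share of all genes that differed between dividing and other cells beyond counting error was not computed.

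**Figure D3:**
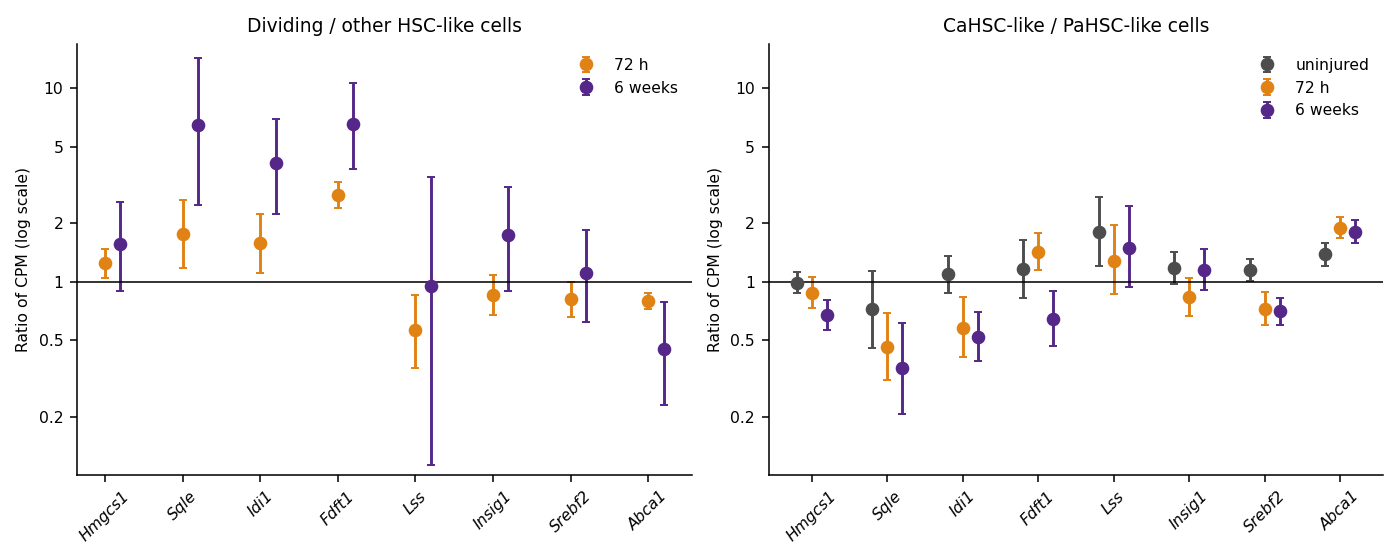
Ratios of CPM within HSC-like cells on a log axis, with exact 95% counting intervals: dividing over other cells at 72 h and 6 weeks on the left, and CaHSC-like over PaHSC-like cells in the 3 libraries on the right. Fdft1 lies highest at 72 h on the left, at 2.8, and Abca1 lies above 1 in every library on the right; the 28 dividing cells of the uninjured library are not drawn.

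HSC-like cells were also divided by position along the lobule with the study's zonation genes (52 portal and 29 central), none of them a member, into central vein-associated (CaHSC-like) and portal vein-associated (PaHSC-like) cells. Abca1 was higher in CaHSC-like cells in all 3 libraries, at 22.3 against 16.1 CPM in uninjured liver (1.39-fold, 1.21 to 1.59), 34.2 against 18.0 CPM at 72 h (1.9-fold, 1.69 to 2.15) and 29.7 against 16.4 CPM at 6 weeks (1.81-fold, 1.58 to 2.08). In PaHSC-like cells Abca1 was thus between 16.1 and 18.0 CPM in each library. The score was standardised and cut anew in each library, which put 2988, 1663 and 1695 cells in the PaHSC-like group. That group therefore need not hold the same kind of cell in each library, and levels cannot be followed through injury within a zone. The early enzymes did not differ between the zones beyond counting error in uninjured liver. The ratio was 0.988 (0.871 to 1.12) for Hmgcs1 and 1.09 (0.872 to 1.36) for Idi1. With cells thinned to equal depth it was 1.03 (0.812 to 1.32) for Hmgcs1 and 1.49 (0.963 to 2.34) for Idi1. A zone difference in Idi1 is therefore not excluded.

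At 6 weeks Sqle, Idi1, Fdft1, Hmgcs1 and Srebf2 were lower in CaHSC-like cells, and Lss and Insig1 were not. Sqle was at 0.748 against 2.1 CPM (2.81-fold lower), Idi1 at 2.94 against 5.66 CPM (1.93-fold), Fdft1 at 2.66 against 4.13 CPM (1.55-fold), Hmgcs1 at 8.67 against 12.9 CPM (1.49-fold) and Srebf2 at 11.6 against 16.6 CPM (1.43-fold). Lss went the other way, at 2.27 against 1.53 CPM, with an interval of the ratio that included 1, and was 1.8-fold higher in CaHSC-like cells of uninjured liver. Insig1 had a ratio of 1.15 at 6 weeks. Thinning to 2000 UMIs moved the 6-week ratio of Idi1 from 0.519 to 0.733 and lowered those of Hmgcs1, Sqle, Fdft1 and Srebf2. At 72 h Sqle, Idi1 and Srebf2 had ratios of 0.458, 0.577 and 0.724, while Fdft1 had a ratio of 1.43 (1.15 to 1.78) and Lss of 1.28 (0.86 to 1.96). With every cell thinned to 2000 UMIs the 72 h ratio of Fdft1 was 0.806, and those of Sqle and Srebf2 had intervals that included 1. Between 234 and 495 cells of a library lay near the boundary, and the zone is a range of a score that the study built on uninjured cells. The share of all genes that differed between the zones beyond counting error was not computed for any library.

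Within the 72 h library Insig1 differed widely between clusters. Its level was 18.2 CPM (12.3 to 26) in cells led by Sema4b, Tmem178 and Ttyh2 and 17.8 CPM (15.1 to 20.8) in cells led by Abhd2, Slc39a1 and Pam, and between 2.95 and 5.64 CPM in the other 4 clusters. Srebf2 ranged only from 5.14 to 8.34 CPM over the same 6 clusters. Fdft1 ran from 2.43 CPM in the Sema4b cluster to 16.2 CPM in the dividing cluster led by Birc5. At 6 weeks Abca1 was at 38.7 CPM (34.7 to 43) in the cluster led by Alcam, Ltbp2 and Fam180a and at 20.4 CPM in that led by Clec4g.

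In FB-like cells after 6 weeks of CCl4 Sqle, Fdft1 and Idi1 were lower beyond the counting intervals, and Lss, Hmgcs1, the regulators and Abca1 were not. The share of all genes with separate intervals was not computed. Sqle was at 14.0 CPM in uninjured and 6.72 (5.56 to 8.06) in injured cells, 2.09-fold lower, and Fdft1 at 14.5 and 8.17 CPM (6.88 to 9.64), 1.77-fold lower. Idi1 was at 13.2 CPM against 18.2, with a fold of 0.724, and Lss at 3.19 against 4.34 CPM. Hmgcs1 (24.6 against 27.3 CPM), Insig1 (48.4 against 49.1), Srebf2 (19.7 against 21.6) and Abca1 (27.9 against 24.3) had overlapping intervals. None of the 4 members at 20 CPM passed 1.5-fold, where 6.52% of genes did, and Sqle and Fdft1 were 2 of 8 at 1 CPM in the lower direction, against 4.11% of genes.

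The widest differences lay in 1 group of FB-like cells. In the cluster led by Ly6c1, Pi16 and Stmn4, Idi1 was at 27.4 CPM in uninjured and 8.31 (5 to 13) in injured liver. Sqle was at 19.9 and 3.93 CPM (1.8 to 7.47) there. The cluster with the highest level of each enzyme in uninjured liver thus had the lowest value in injured liver, from 19 and 9 UMIs in 316 cells. Those intervals overlapped the ones of the injured cluster led by Penk, at 11 CPM (8.46 to 14) for Idi1 and 5.32 CPM (3.62 to 7.55) for Sqle. Abca1 was highest in the cluster led by Penk, at 41.8 CPM in uninjured (35.0 to 49.6) and 35.4 in injured liver. In the wider list, 4 of 21 genes at 20 CPM were past 1.5-fold lower and 1 higher, against 1.85% and 4.67% of all genes. Scd2 (2.31-fold), Pmvk (1.91-fold), Msmo1 (1.77-fold) and Fdps (1.69-fold), the last 3 enzymes of the same pathway, were lower, and Mbtps1 was 1.57-fold higher.

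In VSMC-like cells no member was past 1.5-fold after 6 weeks of CCl4, at either minimum, where 9.23% of genes at 20 CPM and 18.9% at 1 CPM were. Hmgcs1 was at 34.2 CPM (31.2 to 37.4) against 24.4, 1.4-fold higher, and Fdft1 at 19.3 against 16.1, Idi1 at 20.4 against 23.3, Sqle at 11.1 against 12.9 and Lss at 3.69 against 5.48 CPM. Insig1 was at 31.7 against 25.8 and Srebf2 at 25.4 against 21.0 CPM. Abca1 was at 4.77 CPM (3.69 to 6.07) against 4.6. In uninjured liver it was at 1.01 CPM (0.209 to 2.96) in the cluster led by Tcap, Sorbs2 and Corin and at 3.93 CPM (1.58 to 8.09) in that led by Ephx3, Cd24a and Higd1b, with overlapping intervals. Among the wider-list genes at 20 CPM, Lbr (2.13-fold), Mbtps1 (1.6-fold) and Acly (1.54-fold) were past 1.5-fold higher and Scd2 was 1.96-fold lower.

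The Smart-seq2 wells allowed a test between FB-like and VSMC-like cells, since 6 uninjured portions held at least 10 wells of both. These portions may not be 6 separate mice. Values are reads per 1000000 (RPM) summed over the wells of a class in a portion. Abca1 lay between 52.3 and 140 RPM in FB-like portions with a median of 74.1, and between 16.3 and 38.7 RPM in VSMC-like portions with a median of 26.4. The groups did not overlap, and FB-like wells were higher in 6 of 6 portions, with a log2 fold change of 1.76 (SE 0.35, adjusted p = 0.00789, edgeR quasi-likelihood test with portion as a block, Benjamini-Hochberg over 12036 genes).

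Srebf2 ran from 72.5 to 149 RPM in FB-like portions (median 98.0) and from 159 to 366 RPM in VSMC-like portions (median 182), again without overlap and higher in VSMC-like wells in 6 of 6 portions. Its log2 fold change, FB-like over VSMC-like, was -0.81 (SE 0.17, edgeR adjusted p = 0.0114), whereas its ratio in the uninjured 10X library was 1.03. These 2 were the members called by edgeR, 1 in each direction, against 9.63% of genes higher and 8.77% lower in FB-like wells, and the members that did not overlap between classes, against 16.0% of genes.

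The synthesis enzymes leaned towards VSMC-like wells without passing the test. Sqle was between 1.11 and 29.6 RPM in FB-like (median 10.9) and between 20.8 and 50.1 RPM in VSMC-like portions (median 41.5), higher in VSMC-like wells in 6 of 6 portions, with a log2 fold change of -1.85 (SE 0.62, edgeR adjusted p = 0.0764). Fdft1 ran from 0 to 35.9 and from 16.5 to 39.1 RPM, with a log2 fold change of -2.40 (SE 1.23, edgeR adjusted p = 0.244). DESeq2, which called 30.7% of genes here, called both Sqle (adjusted p = 0.00631) and Fdft1 (adjusted p = 0.0394). Hmgcs1 had a log2 fold change of -0.29 and Lss of -1.31. Insig1 was higher in FB-like wells in 5 of 6 portions, 15.1 to 57.2 against 7.14 to 29.3 RPM, with a log2 fold change of 1.03 (SE 0.55, edgeR adjusted p = 0.263). Idi1 never exceeded 2.01 RPM in any portion and class, and its log2 fold change of -1.27 rests on few reads. How reads that match near-identical gene copies were counted is not given in the sources used here, so this level is uncertain.

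In the wider list, 15 of 41 genes tested had an unadjusted p under 0.05, beside 3572 of all 12036 genes. Where edgeR called 9.63% of all genes higher in FB-like wells and 8.77% lower, it called 11 of the 41 higher and 0 lower. Of these, 5 handle sterol that has been taken up or stored: Lipa, the lysosomal ester hydrolase (log2 fold change 2.19, edgeR adjusted p = 0.000131), Lrp1, a lipoprotein receptor (2.05), Npc2 (1.72) and Npc1 (1.19), which move sterol out of lysosomes, and Soat1, which esterifies it (2.17). Apoe had a log2 fold change of 3.71 (SE 0.41, edgeR adjusted p = 0.000423). Scd1 (6.20) and Scd2 (1.43) are desaturases, Mbtps1 (0.92) processes the sterol factors, and Ebp (1.06) and Sc5d (1.35) were the called enzymes among 16 further synthesis genes. The calls of Ebp, Sc5d and Npc1 were lost when any of 5 portions was left out, and that of Soat1 with any of 3.

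**Figure D4:**
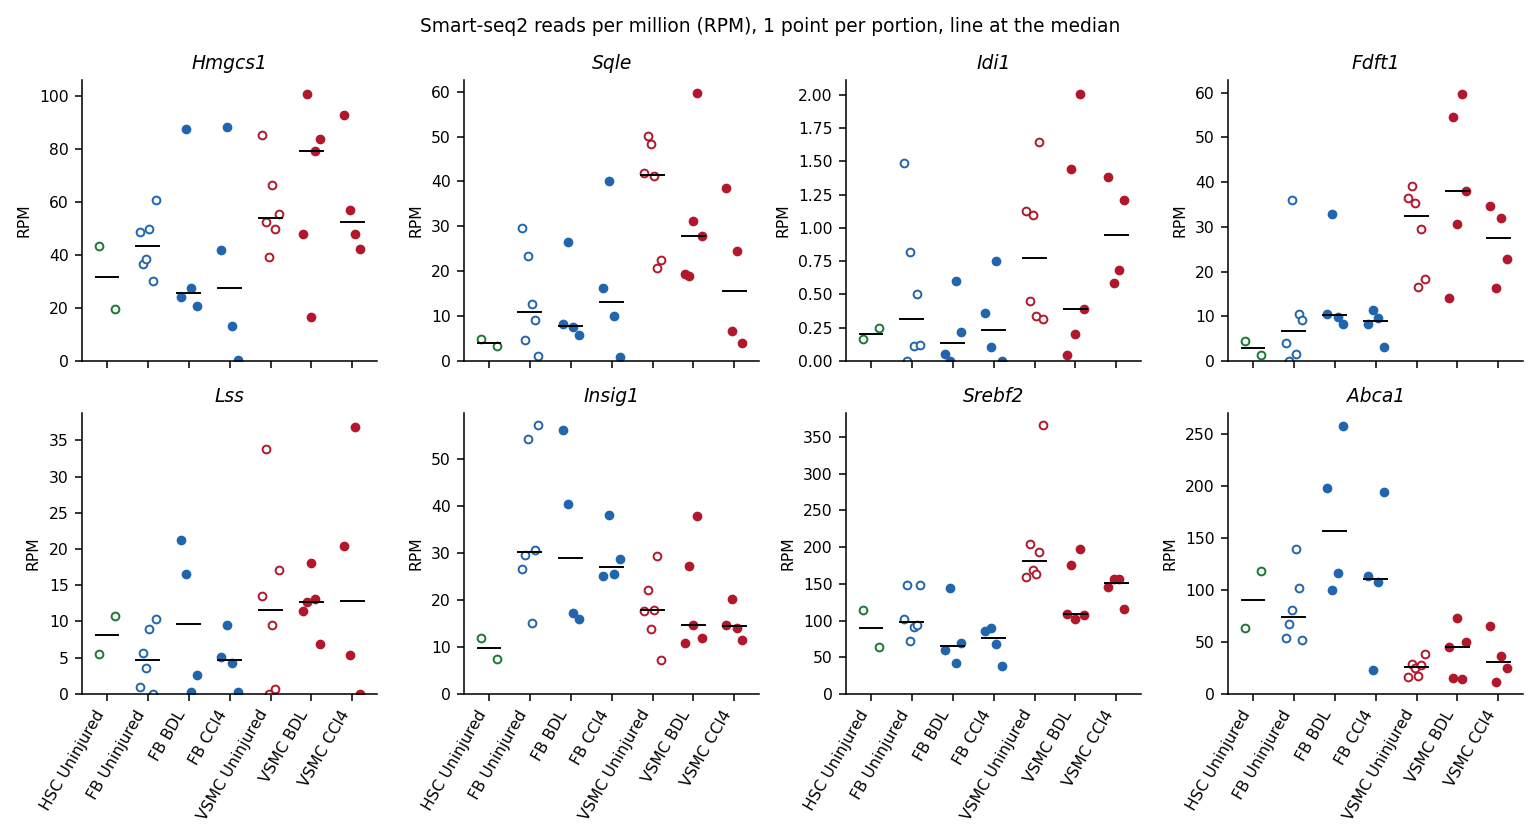
Reads per 1000000 (RPM, linear axis from 0) of each gene by class and condition in Smart-seq2 wells, 1 point per portion, open for uninjured and filled for injured, with a line at the median. Abca1 in uninjured FB-like portions (52.3 to 140 RPM) lies above all VSMC-like uninjured portions, and Srebf2 lies below them.

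HSC-like wells came from 2 uninjured portions of 1 plate. Abca1 was at 63.5 and 118 RPM there, Srebf2 at 114 and 64.6, Hmgcs1 at 43.3 and 19.8, Sqle at 4.96 and 3.25, Fdft1 at 4.55 and 1.23, Lss at 5.52 and 10.7 and Insig1 at 12.0 and 7.44 RPM. Insig1 was below the 6 uninjured FB-like portions in both, and the share of all genes placed in this way was not computed. Sqle and Fdft1 lay within the FB-like ranges of 1.11 to 29.6 and 0 to 35.9 RPM. Idi1, at 0.162 and 0.245 RPM, lay within 0 to 1.49 RPM. Lss was not lower here, unlike in the droplet libraries, with a median of 8.11 RPM beside 4.67 RPM in FB-like portions. The labels name both digestions on that plate. Class and digestion therefore cannot be told apart here, as in the droplet libraries.

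BDL and 6 weeks of CCl4 were compared with uninjured portions of plates 1 to 5, with plate as a term. edgeR called 0 of 13200 genes in FB-like wells for BDL, for CCl4 or between them, a background of 0%, and 0 of the 8 members. Genes at an unadjusted p under 0.05 numbered 796, 391 and 576. Spp1 was not called either, at 384 to 2031 RPM after BDL and at most 3.36 RPM in uninjured portions. The fit thus passed over a wide difference, and 0 calls do not show that the members were unchanged. In VSMC-like wells it called 1 of 13041 genes for BDL (0.00767%) and 0 (0%) for CCl4 and for CCl4 against BDL, again 0 of 8 members, with 988, 463 and 535 genes at an unadjusted p under 0.05. DESeq2 called 313, 103 and 136 genes in FB-like and 379, 187 and 163 in VSMC-like wells.

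Abca1 in FB-like wells was at 99.7, 116, 198 and 258 RPM after BDL, with a median of 157, and at 54.2 to 140 RPM in 5 uninjured portions, with a median of 80.4. The groups overlapped, and the log2 fold change was 1.12 (SE 0.54, edgeR adjusted p = 0.843). Fdft1 was at 8.21, 9.94, 10.5 and 32.8 RPM after BDL and from 0 to 35.9 RPM in uninjured portions, with a log2 fold change of 3.51 (SE 1.36, edgeR adjusted p = 0.761). That value was 0.57 without the plate term, 2.45 without BDL portion 1 of plate 2 and 5.03 without the uninjured portion of plate 1. DESeq2 called Fdft1 (adjusted p = 0.0249), as it did 2.37% of genes. Of 5 cholangiocyte markers, Spp1 was at 384 to 2031 RPM in FB-like BDL portions and at most 3.36 RPM in uninjured ones, whereas Epcam, Krt19, Krt7 and Cldn4 were at or below 2.45 RPM after BDL; their part in the values of the 8 genes was not tested.

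After CCl4, FB-like portions were widely spread. Hmgcs1 was at 0.546, 13.3, 41.8 and 88.3 RPM beside 30.1 to 50 RPM in uninjured portions, Sqle at 0.78, 10.1, 16.2 and 40.2 RPM beside 4.68 to 29.6, and Abca1 at 23.3, 108, 114 and 194 RPM. The portion with the lowest Hmgcs1 and Sqle had the highest Abca1, and the portion with the highest Hmgcs1 and Sqle had the lowest Abca1. Insig1 kept within 25.1 to 38.0 RPM in the same 4 portions.

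In VSMC-like wells Srebf2 was at 116, 146, 156 and 157 RPM after CCl4 and between 159 and 204 RPM in 5 uninjured portions. The groups did not overlap, as for 1.43% of genes, but the log2 fold change of -0.31 (SE 0.29) did not pass the edgeR test (adjusted p = 1). Lss was at 0, 5.31, 20.4 and 36.9 RPM after CCl4 and from 0 to 33.8 RPM in uninjured portions, so the groups overlapped, while the fit with plate as a term gave a log2 fold change of 6.30 (SE 2.27, edgeR adjusted p = 1). That value was 0.50 without the plate term, 3.16 without CCl4 portion 1 of plate 5 and 11.44 without the uninjured portion of plate 5. DESeq2 called Lss in that comparison (adjusted p = 0.00213), as it did 1.43% of genes, and against BDL, where it called 1.25%. Sqle after CCl4 lay at 3.92 to 38.5 RPM beside 20.8 to 50.1 RPM in uninjured portions, and Hmgcs1 at 42.2 to 93.0 beside 39.1 to 85.4 RPM. BDL portions of VSMC-like wells held 14.8 to 73.2 RPM of Abca1 beside 16.3 to 29.1 RPM in uninjured ones, and 14.0 to 59.8 RPM of Fdft1 beside 16.5 to 39.1.

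Over the 31 sums of portion and class from all plates, which share mice, plates and classes, log2 levels of Srebf2 and Abca1 had a Pearson r of -0.72, Hmgcs1 and Srebf2 of 0.67, Sqle and Fdft1 of 0.64 and Hmgcs1 and Abca1 of -0.61. Insig1 had no such relation to its partners, with r between -0.16 and 0.08 for all 7. The genes whose log2 levels were most like the mean of the 5 enzymes and Insig1, among 7481 genes at 20 RPM or more, were Timm44 (0.75), Nrm, Rwdd1, Get4 and Rasl12 (0.69 each), Tmem246 and Tbxa2r (0.68) and 1110007C09Rik, Gnao1 and Serpinb1a (0.67).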

How the data were processed

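Droplet counts are the deposited UMIs per gene and cell, which the authors made with Cell Ranger 2.1.0 (mm10, Ensembl annotation). Plate counts are the reads per gene and well that the authors deposited after alignment with STAR. Droplet cells with at least 300 genes and at most 30% mitochondrial UMIs were clustered (Leiden, resolution 0.8, 10 components of 2000 variable genes) in Python 3.11.15; a name needed 3 markers seen in enough cells, a rule set after the clusters were looked at. Doublets (238 to 427 called per library) were kept. UMIs were summed per class and library and given per 1000000. Past 1.5-fold with at least 20 CPM in the higher class counted as a difference, so a gene could reach the minimum through the higher class alone. The 1 CPM minimum and the values without dividing cells were added after the data were seen. Reads of portions with at least 10 wells of a class (2065 of 2292 wells kept) were tested with edgeR 4.0.16 (TMM, filterByExpr, adjusted p under 0.05), with DESeq2 1.42.0 as an alternative. The edgeR fits and the droplet folds were tried on data simulated without plate effects, and DESeq2 was not. The SE of a log2 fold change is its size over the square root of F. The plate term takes the place of a block, and FB-like and VSMC-like wells were paired by portion because both come from the same mouse and plate. Named genes were the 8 members in every class, the wider-list genes past the threshold in the comparisons by condition or between Smart-seq2 classes, and the 10 genes most like the synthesis members. Values are rounded to 3 significant digits. The members and lists were chosen with earlier results of these data known. Droplet intervals and folds cover counting error only. Some items of the wider list and some clusters are not reported here.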

Additional observations from a re-analysis of the deposited data

Results flagged for a closer look

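Of 48 groups of 4 to 10 portions looked at, 5 held a portion far from the others, where chance gives about 1 in 20. In FB-like wells after BDL, portion 2 of plate 1, which had 13 FB-like wells, was high for Hmgcs1 at 87.5 RPM (next 27.6), for Sqle at 26.6 RPM (next 8.17) and for Fdft1 at 32.8 RPM (next 10.5). Uninjured FB-like wells of plate 3 were at 35.9 RPM for Fdft1 (next 10.5). Srebf2 was at 366 RPM in the 34 uninjured VSMC-like wells of portion 1 of plate 6, where the next portion was at 204 RPM.

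Wells outside the named classes also held these genes. In 168 wells of no named class, 144 of them from CCl4 portions, Abca1 was at 231 RPM and Fdft1 at 41.2 RPM, above the highest uninjured portions of the named classes (140 and 39.1 RPM). Injured portions of the named classes went higher, up to 258 RPM of Abca1 (FB-like, BDL) and 59.8 RPM of Fdft1 (VSMC-like, BDL). In 27 mesothelial-like wells, 19 of them from CCl4 portions, Abca1 was at 208 RPM.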

How the results depend on the processing

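Of 621 alternative values of droplet folds, 524 moved by less than their counting interval, 97 moved further and 0 changed direction past the threshold. At a minimum of 1 CPM, added after the data were seen, the members past 1.5-fold numbered 6 at 72 h, 4 at 6 weeks, 3 between them and 2 in FB-like cells. DESeq2 size factors left 1 member at 6 weeks, and thinning to 2000 UMIs gave 2 in VSMC-like cells. Thinning also turned the CaHSC-like to PaHSC-like ratio of Fdft1 at 72 h from 1.43 to 0.806. The cause was not tested. Insig1 at 72 h ranged from 0.518 to 0.694 and Fdft1 from 1.92 to 2.93 over the alternatives.

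Smart-seq2 counts of called genes depended on the tool. For FB-like wells DESeq2 called 313 (BDL), 103 (CCl4) and 136 (CCl4 against BDL), no filter on low counts gave 200, 26 and 60, no plate term 22 (BDL) and 3 (CCl4 against BDL), and classes by marker score 5 (BDL) and 7 (CCl4). For VSMC-like wells DESeq2 called 379, 187 and 163, no filter 142, 17 and 15, and no plate term 32 (BDL) and 1 (CCl4 against BDL). DESeq2 called 3692 between the classes. Leaving out 1 portion gave 0 to 4 for VSMC-like BDL (0 without plate 1 BDL portion 1 or the uninjured portion of plate 1 or 2, 4 without either portion of plate 4), 0 to 1 for VSMC-like CCl4 against BDL (1 without either portion of plate 4), 1631 to 2320 between classes and 0 in the other comparisons.

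The FB-like against VSMC-like comparison pairs classes within a portion, and without the replicate block 2315 genes were called in place of 2215. In that comparison Abca1 kept an edgeR adjusted p of 0.00333 to 0.0318 and Srebf2 of 0.0136 to 0.0457 whichever portion was left out. Ebp, Sc5d, Npc1 and Soat1 lost the call without some portions, with adjusted p up to 0.0995, 0.102, 0.122 and 0.0551. Of 329 alternative values for single genes in Smart-seq2 wells, 22 lost and 4 gained a call. Numbers of UMIs limit Sqle and Lss in HSC-like cells, and the number of portions limits every Smart-seq2 value.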

Other observations

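The 72 h library, made with the HSC digestion, also held 191 FB-like cells. Abca1 was at 40.3 CPM there (33.4 to 48.3), Hmgcs1 at 11.7, Fdft1 at 6.2 and Insig1 at 4.48 CPM. These cells carried both the FB marker Dpt, at 784 CPM, and the HSC markers Colec11 and Lrat, at 500 and 369 CPM. Their Insig1 was within the range of HSC-like clusters of that library and below the 33.4 to 55.0 CPM of uninjured FB-like clusters of the other digestion.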
